A study of Homo sapiens with 9 samples.

Results

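Toll-like receptor genes were examined in 4 ATAC-seq peak lists of HEK293T, a human cell line derived from embryonic kidney. ATAC-seq finds open chromatin through the preferential insertion of sequencing adapters by the Tn5 transposase. The 10 human receptor genes, TLR1 to TLR10, were taken as a family by name, and every peak in the body of a gene or within 10 kb of it was collected, with gene positions from RefSeq (GRCh38.p14). All 10 were found among 20037 protein-coding genes. Their windows held 9 of 39194 peaks in the control list, 11 of 50917 in the IGF2BP1 knockout list, 12 of 60262 in the IGF2BP2 knockout list and 12 of 44041 in the IGF2BP3 knockout list. The lists come from 2 control libraries made with a guide that targets no mammalian gene, 3 IGF2BP1 knockout libraries, 2 IGF2BP2 knockout libraries and 2 IGF2BP3 knockout libraries. IGF2BP1, IGF2BP2 and IGF2BP3, also called IMP1, IMP2 and IMP3, are related RNA-binding proteins. All cells were otherwise untreated. Each knockout was a single clone, grown from a sorted GFP-positive cell after transient transfection of non-integrating plasmids that carried the guides and GFP, and a clone cannot be told apart from its genotype. The control was produced in parallel. Where 3 knockout values follow each other below, they are in the order IGF2BP1, IGF2BP2 and IGF2BP3. The IGF2BP1 knockout had 1 library from batch 1, and every group had 1 library from batch 2 and 1 from batch 3, and the lists hold no values per batch.

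Toll-like receptors recognise microbial molecules through an ectodomain of leucine-rich repeats and signal through a cytoplasmic TIR domain. TLR1, TLR2, TLR4, TLR5, TLR6 and TLR10 act mainly at the cell surface, where TLR4 senses lipopolysaccharide, TLR5 senses flagellin and TLR2 pairs with TLR1 or TLR6 to sense lipoproteins. TLR3, TLR7, TLR8 and TLR9 sense nucleic acids in endosomes. Most are best known from myeloid cells, B cells and dendritic cells, and HEK293 derivatives are widely used as hosts for transfected receptors because they respond to few ligands on their own.

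TLR5 had a peak over its start site in all 4 lists, the only one of the 7 receptors with a tabulated start site to have one in any list. TLR3 had a peak just upstream of its start site in all 4 lists. A gene was counted as having a promoter peak when a peak lay within 1 kb of a RefSeq start site. By that rule, 2 of 10 receptors had a promoter peak in each of the 4 lists, against 66.6% of all protein-coding genes in the control list and 68.7%, 68.2% and 67.5% in the knockout lists. The other 8 receptors had none in any list, as did 29.0% of all protein-coding genes. RefSeq start sites were at hand for 7 receptors and for 15843 protein-coding genes. For TLR1, TLR7 and TLR10, as for the other genes without one, a peak within 1 kb of either gene end was counted instead. Among the 7 with a start site, 2 had a promoter peak in each list, against 69.0% of such genes in the control list and 70.9%, 70.5% and 69.7% in the knockout lists. A peak covered the start site itself at 1 of the 7 in each list, against 65.9% of genes in the control list and 67.7%, 66.4% and 66.1% in the knockout lists. No receptor gained a promoter peak in a knockout list (background 2.75%, 2.9% and 2.25% of genes), and none lost its control peak (background 0.684%, 1.31% and 1.39%). Because each group is 1 list without heights, scores or values per library, no spread between replicates and no test across replicates could be given for any value here, and the read depth is unknown.

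**Figure D1:**
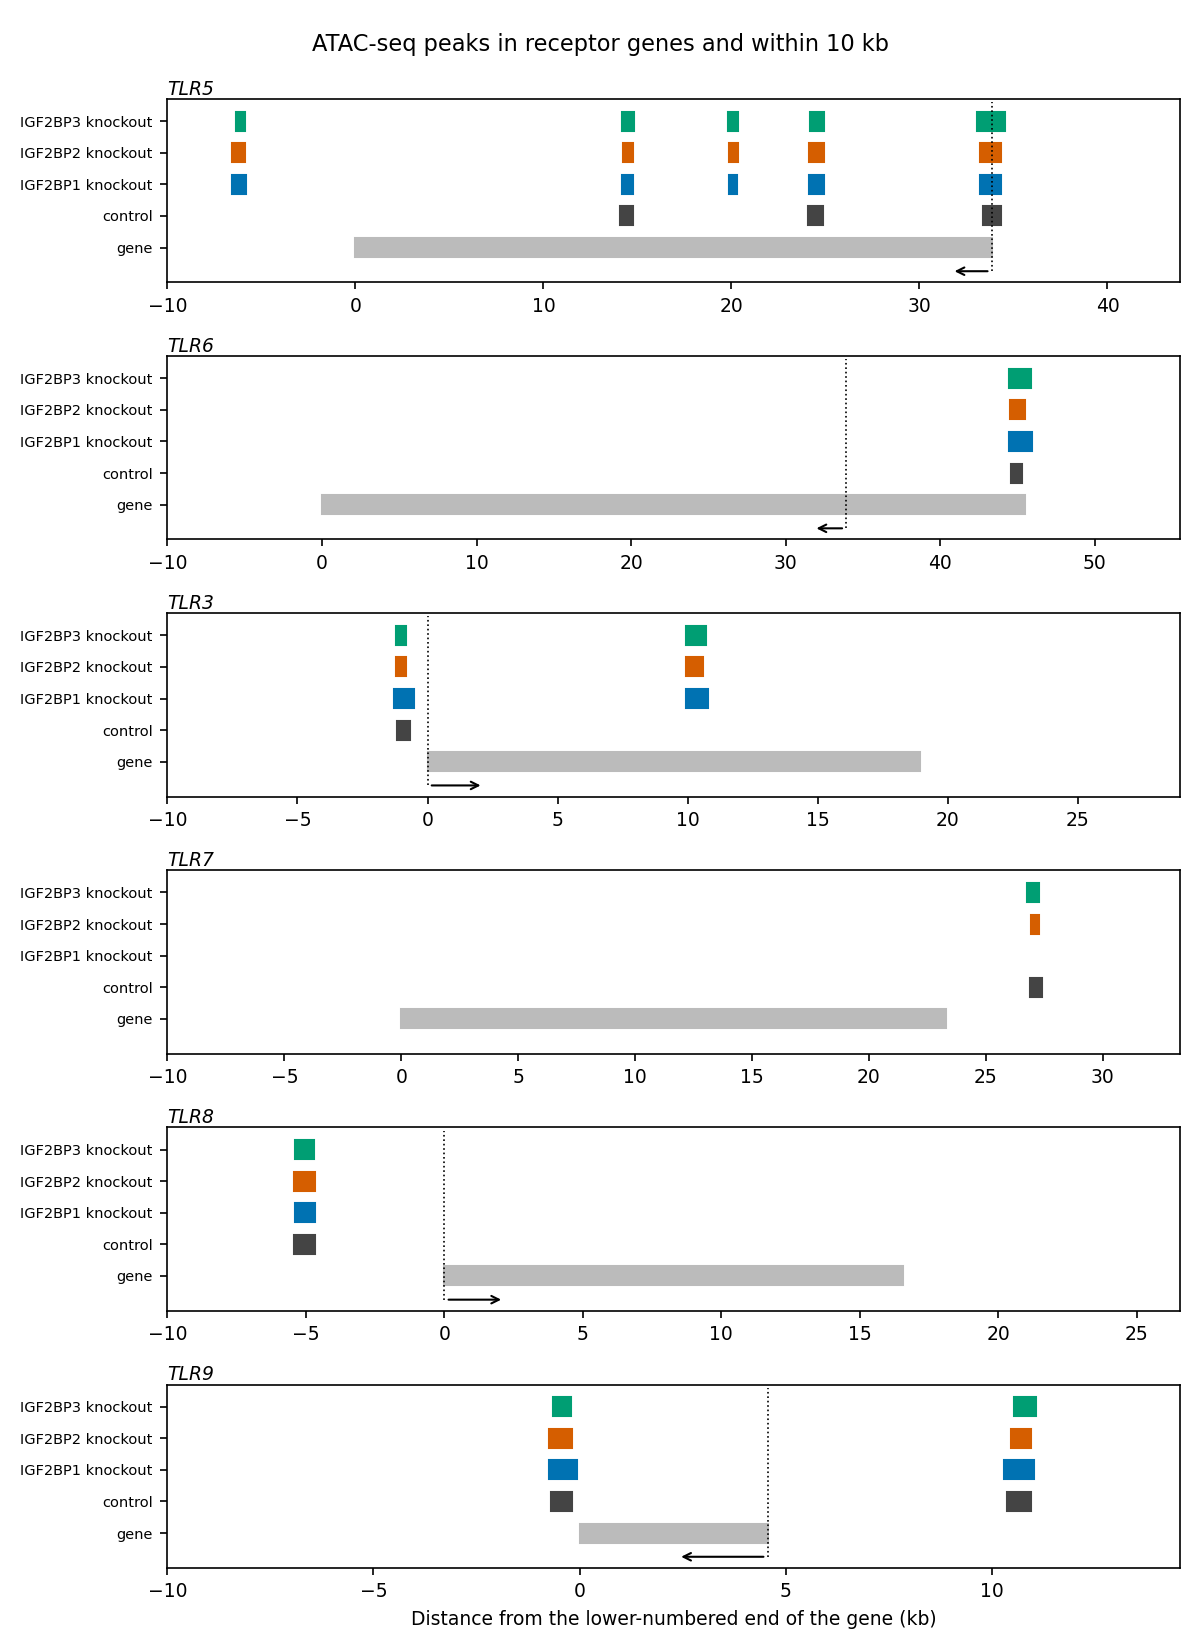
Peaks of each list (coloured bars, to scale) around the 6 receptor genes with a peak in the gene or within 10 kb. The horizontal axis of each panel is the distance in kb from the lower-numbered end of the gene, grey bars are gene bodies, and dotted lines with arrows mark RefSeq start sites and the direction of transcription where these were at hand. Of the start sites marked, peaks lie over that of TLR5 alone.

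TLR5 lies on the minus strand of chromosome 1, from 223109404 to 223143248. Its promoter, from 250 bases before to 50 bases after the start site (RefSeq, GRCh38.p14, chr1:223143199-223143498, minus strand), is shown because it is the receptor promoter that lay wholly inside a peak in every list. The promoters of TLR2 (chr4:153684030-153684329, plus strand) and TLR3 (chr4:186068906-186069205, plus strand) are shown for contrast, the first with no peak nearby and the second with a peak that stops short of the start site. Capitals mark CpG dinucleotides.
TLR5: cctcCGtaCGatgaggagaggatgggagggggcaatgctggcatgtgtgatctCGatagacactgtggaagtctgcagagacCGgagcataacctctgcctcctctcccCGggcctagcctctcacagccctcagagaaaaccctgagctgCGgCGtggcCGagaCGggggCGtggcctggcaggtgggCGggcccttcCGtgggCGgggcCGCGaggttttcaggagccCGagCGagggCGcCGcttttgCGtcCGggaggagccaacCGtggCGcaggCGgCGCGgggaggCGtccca
TLR2: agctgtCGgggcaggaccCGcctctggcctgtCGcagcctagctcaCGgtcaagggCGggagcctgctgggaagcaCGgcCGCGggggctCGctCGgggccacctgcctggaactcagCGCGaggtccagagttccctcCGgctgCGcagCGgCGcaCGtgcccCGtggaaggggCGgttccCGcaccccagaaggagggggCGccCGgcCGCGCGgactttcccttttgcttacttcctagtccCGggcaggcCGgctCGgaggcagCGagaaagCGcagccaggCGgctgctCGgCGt
TLR3: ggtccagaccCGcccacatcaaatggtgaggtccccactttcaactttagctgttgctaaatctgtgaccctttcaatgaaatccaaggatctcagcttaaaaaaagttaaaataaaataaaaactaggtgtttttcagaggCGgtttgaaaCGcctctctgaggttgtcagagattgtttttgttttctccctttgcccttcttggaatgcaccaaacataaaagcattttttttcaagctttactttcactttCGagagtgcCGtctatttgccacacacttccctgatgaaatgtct

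The peak over the TLR5 start site was 989 bp wide in the control (223142765 to 223143753) and 1159, 1148 and 1501 bp wide in the knockouts. In the IGF2BP3 knockout it ran from 223142474 to 223143974. It was narrowest in the control and widest in the IGF2BP3 knockout. Ranked by width within its own list, the peak stood at percentile 69.0 in the control and at 76.4, 86.6 and 93.6 in the knockouts, so it was wider than most peaks of every list. It also covered the start site of the long noncoding RNA gene LOC124904522, which begins 107 bp away on the opposite strand. A peak here therefore cannot be assigned to TLR5 alone.

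Peaks also lay inside the TLR5 gene, downstream of its start site. One region spanned 8.93 to 9.77 kb from the start site (chromosome 1, 223133479 to 223134319) and was in all 4 lists, with widths of 811 bp in the control and 786, 766 and 753 bp in the knockouts. A further region, 19004 to 19785 bp from the start site (223123463 to 223124244) was also in all 4 lists, with widths of 727, 579, 561 and 638 bp in the same order. Between them, a region at 13.5 to 14.0 kb (223129238 to 223129760) was present in the 3 knockout lists and absent from the control list, whose nearest peak was 3.72 kb away. Its peaks were narrow for their lists, at width percentiles 5.11, 29.0 and 24.2 in the knockouts. Beyond the downstream end of the gene, 5.84 kb away, another region (223102858 to 223103562) was present in the 3 knockout lists alone. It overlapped the long noncoding RNA gene LOC107985323 and lay 12.4 kb from the nearest control peak. The table of gene positions used here gives no exons, so whether these regions are exonic or intronic was not determined.

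TLR6 had 1 region in its window, in all 4 lists, and it lay at the promoter of a neighbouring gene. TLR6 is on the minus strand of chromosome 4 and its RefSeq gene record runs from 38822897 to 38868390, but the start site in the promoter table is at 38856817. The region (38867336 to 38868808) reached to within 10.5 kb of that start site, on its upstream side. It covered the start site of FAM114A1, which is transcribed in the opposite direction from 38867806, and the microRNA gene MIR574. The region also held the upstream end of the TLR6 gene record, at 38868390. Peaks of the IGF2BP1 and IGF2BP3 knockouts covered that end. Those of the control and the IGF2BP2 knockout stopped short of it, at 38868153 and 38868371. The region therefore cannot be assigned to FAM114A1 alone, and the count of TLR6 as without a promoter peak rests on the tabulated start site. The peak was 711 bp wide in the control and 1470, 962 and 1401 bp wide in the knockouts. The ratios to the control were 2.07, 1.35 and 1.97, and the control had the narrowest of the 4 peaks.

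TLR1 and TLR10, the other members of this chromosome 4 cluster, had no peak in the gene or within 10 kb in any list. TLR10 spans 38772238 to 38782990 and TLR1 spans 38787569 to 38805644. A stretch of 108 kb from 38759777 to 38867335 held no peak of any list, and it contained TLR10, TLR1 and the tabulated start site of TLR6. The nearest peak lay 18.7 kb from TLR10 in the control list and 12.5, 18.7 and 18.8 kb from it in the knockout lists. For TLR1 the distances were 34.0, 27.8, 34.0 and 34.1 kb in the same order. The IGF2BP1 knockout list had the nearest peak in both cases, still outside the window.

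TLR2 and TLR4, the best known surface receptors for lipoproteins and lipopolysaccharide, likewise had no peak in their windows in any list. TLR2 (chromosome 4, 153684280 to 153710637) lay in a stretch without peaks of any list from 153650014 to 153750118, and its nearest peak was 39.5 kb away in the control and 34.3, 34.3 and 34.4 kb away in the knockouts. RNF175, a gene whose end overlaps that of TLR2, had a peak at its own distant start site in the IGF2BP2 knockout (442 bp) and the IGF2BP3 knockout (607 bp) and none there in the other lists. TLR4 (chromosome 9, 117704403 to 117724735) stood in a stretch of 138 kb without peaks. Its nearest peak was 148 kb away in the control and 58.3, 59.0 and 58.4 kb away in the knockouts. In the control list, 2.61% of protein-coding genes were as far from a peak as TLR4 or farther, and 8.21% were as far as TLR2. In all, 4 of 10 receptors had no peak in the gene or within 10 kb in any list, against 10.5% of protein-coding genes.

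**Figure D2:**
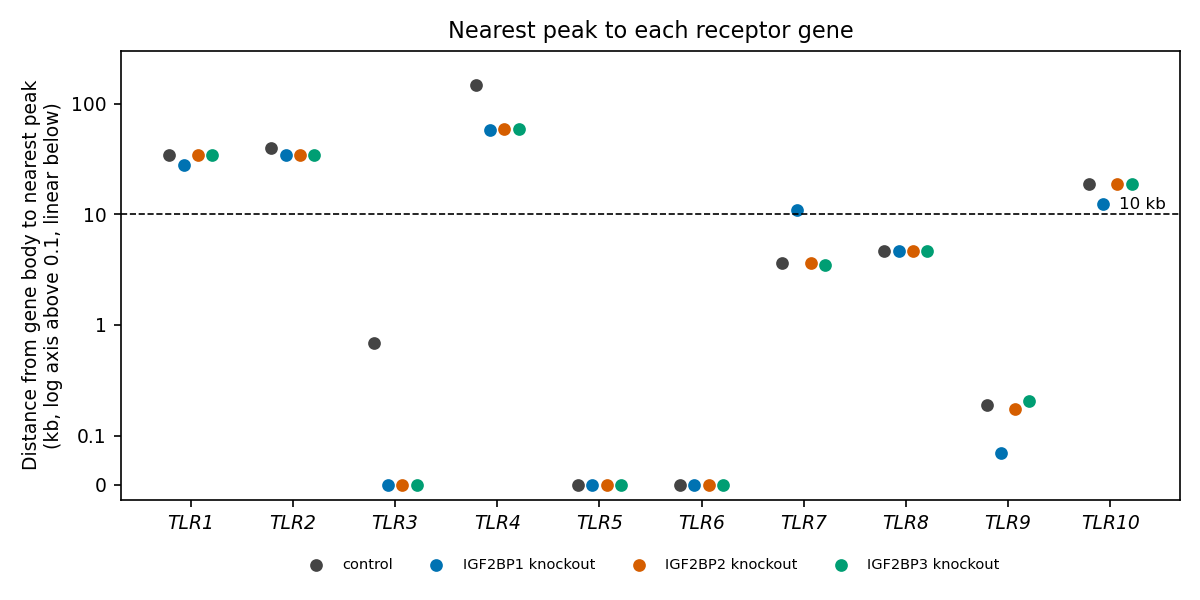
Distance in kb from each receptor gene (horizontal axis) to the nearest peak of each list (coloured points), on an axis that is logarithmic above 0.1 kb and linear below. A value of 0 means that a peak overlaps the gene, and the dashed line marks the 10 kb limit. TLR1, TLR2, TLR4 and TLR10 lie above the line in all 4 lists, and TLR7 lies above it in the IGF2BP1 knockout alone.

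Among the endosomal receptors, TLR3, which senses double-stranded RNA, had 2 regions. It lies on the plus strand of chromosome 4 from 186069156 to 186088073. The upstream region (186067858 to 186068617) was in all 4 lists. Its peak ended 0.694 kb before the start site in the control and 0.539, 0.811 and 0.836 kb before it in the knockouts. No list had a peak over the start site, so TLR3 counts as having a promoter peak at the 1 kb limit and not at 500 bp. The peak was 497 bp wide in the control and 760, 384 and 379 bp wide in the knockouts, at width percentiles 16.5, 42.1, 11.4 and 8.64. The IGF2BP1 knockout had the widest of the 4, and all were narrower than the median peak of their list.

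The other TLR3 region lay inside the gene, 9.92 to 10.8 kb from the start site (186079075 to 186079935), and was present in the 3 knockout lists and absent from the control list. Its peaks were 861, 630 and 772 bp wide, at width percentiles 52.9, 47.3 and 56.1. The nearest control peak was 10.6 kb away, and it was the upstream one. Of the 3 regions found in the knockout lists alone, this had the peaks nearest to the middle of their lists by width.

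TLR7 and TLR8, neighbouring X-linked receptors for single-stranded RNA, had no peak at a gene end or inside the gene. For TLR7 (12867072 to 12890361), the window held a region 3.48 kb beyond the gene on the side towards TLR8 (12893838 to 12894475). Its peak was 511 bp wide in the control, and in the IGF2BP2 and IGF2BP3 knockouts it measured 363 and 491 bp, at width percentiles 18.5, 9.14 and 21.4. The IGF2BP1 knockout list had no peak there, and its nearest peak to TLR7 was 10.9 kb away. TLR8 (plus strand, 12906620 to 12923169) had a region upstream of its start site, from -5.43 to -4.66 kb, in all 4 lists (12901193 to 12901958). Its widths were 766 bp in the control and 732, 744 and 706 bp in the knockouts, a narrow range. The antisense gene TLR8-AS1 spans 12902817 to 12943300, and the region lies outside it.

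TLR9, the receptor for unmethylated CpG DNA, is a short gene on the minus strand of chromosome 3 (52221080 to 52225645), between ALAS1, which makes the first enzyme of haem synthesis, and TWF2, which makes an actin-binding protein. No peak of any list lay within 1 kb of its start site, and the nearest was 4.63 to 4.77 kb away. That peak lay just beyond the downstream end of the gene (52220343 to 52221016) in all 4 lists, with widths of 500 bp in the control and 669, 563 and 428 bp in the knockouts. A region upstream of the start site, from -6.52 to -5.73 kb (52231372 to 52232162) was also in all 4 lists and lay within TWF2. It was 566 bp wide in the control and 743, 477 and 541 bp wide in the 3 knockouts. Both neighbours had promoter peaks in all 4 lists, of 1048 to 1291 bp at ALAS1 and 1117 to 1325 bp at TWF2, so the start site of TLR9, without a peak, sat between promoters with peaks.

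Counted over the family, the windows held 12 regions after overlapping peaks of the 4 lists were merged, 6 of them overlapping a receptor gene and 6 outside. At the 10 kb limit, the outermost regions inside it lay 5.84 kb (TLR5) and 5.73 kb (TLR9) from the gene, and the nearest peaks outside it lay 10.8 kb from TLR7 and 12.1 kb from TLR8, both in the control list. These are the peaks assigned to TLR8 and TLR7, respectively. Of the 12 regions, 8 were in all 4 lists, against 41.5% of the 71597 regions of the series. In the 3 knockout lists and not in the control there were 3, the regions at 13.5 kb and beyond the end of TLR5 and the region inside TLR3, against 6.88% of all regions. The count of this class was not planned and was chosen after seeing the data. The remaining region, at TLR7, was in every list but the IGF2BP1 knockout, against 1.35%. None of the 12 was in a lone list, against 28.1%. A window peak was present at 6 receptors in the control list (background 83.8% of genes), 5 in the IGF2BP1 knockout list (86.7%), 6 in the IGF2BP2 knockout list (87.4%) and 6 in the IGF2BP3 knockout list (84.8%). The knockout lists are longer than the control list. Each list was then cut to its 39194 widest peaks. The region beyond the end of TLR5 and the region inside TLR3 were found in the 3 knockout lists alone, against 3.94% of all regions. The TLR7 region was, after that cut, also missing from the IGF2BP2 knockout list. In a random draw of 39194 peaks of each list, 0 of the 3 regions of this class were still in all 3 knockout lists. The draw removed knockout peaks and no control peaks, so it could only lower this count and does not bear on the regions themselves. The TLR7 region kept its class in the draw. Under that draw, 3.38% of all regions were shared by the 3 knockouts and absent from the control.

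The 3 knockouts share the control list, and their widths are given side by side. Over the 8 receptor regions with a peak in all 4 lists, the median width ratio to the control was 1.24, 0.958 and 0.925 in the knockouts. The medians over the 28672 regions of the series with 1 peak in each list were 1.09, 0.998 and 0.979. A peak at least 1.5 times wider than in the control was found at 2 of 8 regions in the IGF2BP1 knockout (TLR6 and upstream TLR3, background 9.03%), at 0 of 8 in the IGF2BP2 knockout (background 3.72%) and at 2 of 8 in the IGF2BP3 knockout (TLR5 start site and TLR6, background 3.43%). None of the 8 was narrower by that factor in any knockout (background 0.67%, 4.54% and 7.12%). Of the 44 receptor peaks in the 4 lists, 30 were narrower than the median peak of their list.

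**Figure D3:**
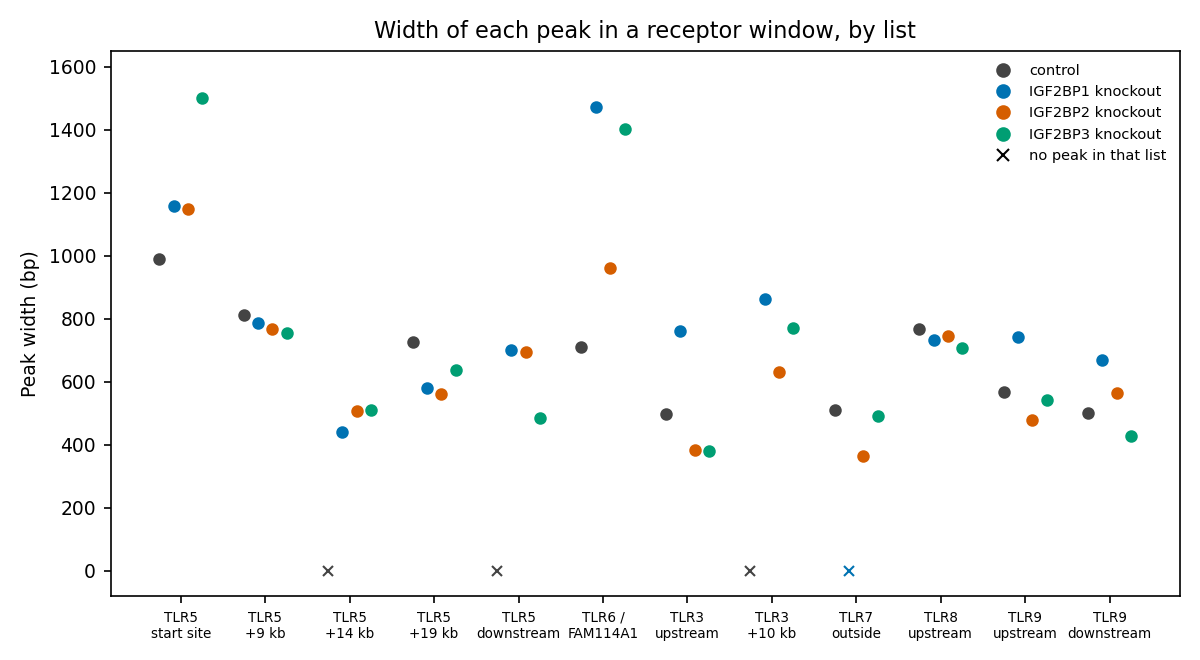
Width in bp (vertical axis) of the peak of each list (coloured points) at the 12 regions of the receptor windows (horizontal axis, labelled by gene and by position relative to the start site or gene). Crosses at 0 mark lists without a peak at that region. The control lacks 3 of the regions and the IGF2BP1 knockout lacks 1, and the TLR5 start site and TLR6 / FAM114A1 regions hold the widest peaks.

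The sequence of the promoter was then set beside its accessibility, since CpG-rich promoters are open in most cell types. The ratio of observed to expected CpG was 0.787 in the TLR5 promoter (27 CpG, GC content 68.3%) and 0.835 in the TLR2 promoter (33 CpG, GC content 72.7%), the sequences printed above. Over the 22199 promoters of protein-coding genes the median ratio was 0.737. It was 0.843 for promoters with a peak within 1 kb in all 4 lists and 0.271 for those with a peak in no list. By its sequence the TLR2 promoter thus fell among mostly open promoters. Of 6799 promoters whose ratio was within 0.1 of that of TLR2, 87.6% had a peak in all 4 lists and 521 (7.66%) had one in no list. Of those equally close to TLR5, 85.7% had a peak in all 4 lists.

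The other receptor promoters had ratios below the median of all promoters. The ratio was 0.418 in TLR3, 0.462 in TLR4, 0.557 in TLR6 and 0.563 in TLR8. The shares of promoters within 0.1 of each that had a peak in no list were 55.6%, 48.0%, 30.7% and 29.9%, against 6809 of all 22199 promoters. The shares with a peak in all 4 lists were 32.5%, 40.6%, 60.5% and 61.6%, against 13828 of 22199. For TLR6 and TLR8 both shares were thus close to those of all promoters. Most promoters close in ratio to TLR6 and TLR8 also had a peak in all 4 lists. TLR3, unlike TLR4, TLR6 and TLR8, itself had a promoter peak in all 4 lists. TLR9 had the lowest ratio of the 7, 0.0822 with 2 CpG in 300 bases, and 84.3% of promoters within 0.1 of it had a peak in no list. Short words were counted on both strands, with overlapping matches counted separately. GGGCGG, the core of the site bound by SP1, occurred in the promoters of TLR5 (2), TLR2 (2), TLR3 (1) and TLR4 (1), and in 56.3% of all promoters. GGAAGT, a core bound by ETS factors, occurred in those of TLR4 (2), TLR2, TLR3, TLR5, TLR8 and TLR9 (1 each), and in 23.9% of all promoters. CCAAT occurred in TLR4 and TLR6 (2 each, 34.7% of all promoters). TATAAA occurred in TLR9 alone of the 7 (9.47% of all promoters).

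**Figure D4:**
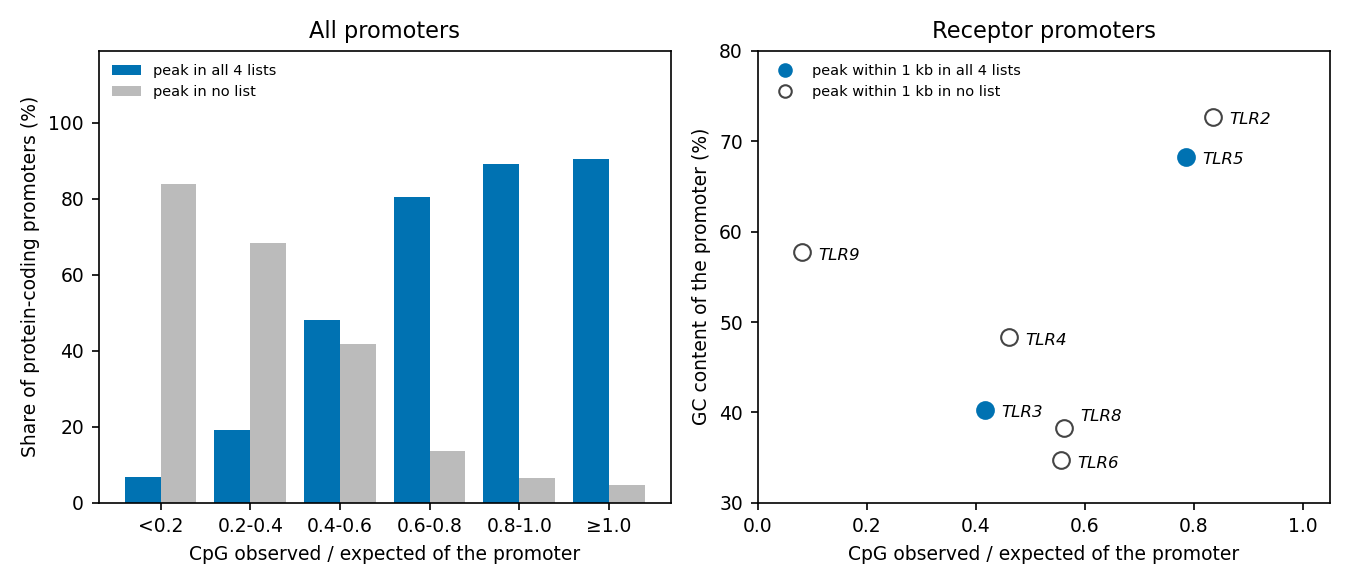
Left, share of protein-coding promoters in percent (vertical axis) with a peak within 1 kb in all 4 lists (blue) or in no list (grey), by ratio of observed to expected CpG (horizontal axis). Right, GC content in percent against that ratio for the 7 receptor promoters, filled where a peak lay within 1 kb in all 4 lists. TLR2 has the highest ratio and GC content of the 7 and no peak.

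The genes through which the receptors act were examined in a list of 46 genes. Receptor signals pass through TIR-domain adaptors such as MYD88 to IRAK kinases and TRAF6, and on to NF-kappaB and interferon regulatory factors. A promoter peak was present at 32 of 46 in the control list (69.6%, against 66.6% of all genes), and at 32, 29 and 32 in the knockout lists. These shares were close to the background. At 8 of the 46, TIRAP and IRF3 among them, either gene end stood for the start site. In all 4 lists, 29 of 46 had a promoter peak, against 64.2% of all genes. They included the adaptors TIRAP and SARM1, the kinases IRAK1, IRAK2 and IRAK4, the ubiquitin ligase TRAF6, the chaperone HSP90B1, the NF-kappaB genes NFKB1 and RELA, and IRF3. Of the folding and transport genes, 6 of 7 had a peak in the control, against 66.6% of all genes. Beside 29.0% of all genes without a promoter peak in any list, all 6 co-receptor and ligand-delivery genes had none. These are LY96 and CD14, partners of TLR4, CD180 and LY86, related to them, the lipopolysaccharide-binding protein LBP and the scavenger receptor CD36. The other genes without a promoter peak in any list were the adaptors TICAM1 and TICAM2, IRAK3, TRAF3, TASL, IRF5, SIGIRR and IL1RL1. So 14 of 46 had none, a share close to the 29.0% of all genes. Of the 14, TICAM1 and SIGIRR had a peak at a gene end in at least 3 lists, away from the tabulated start site.

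Differences between lists were limited to 3 of the 46 genes, MYD88, UNC93B1 and IRF7, each without a promoter peak in the IGF2BP2 knockout list alone. MYD88 is the adaptor of most Toll-like receptors. Its nearest peak ended 987 bp before the start site in the control and the IGF2BP3 knockout, 855 bp before it in the IGF2BP1 knockout and 1003 bp before it in the IGF2BP2 knockout, so the difference rested on the 1 kb limit. UNC93B1, which carries endosomal receptors out of the endoplasmic reticulum, had a gene-end peak of 1079 bp in the control and of 1215 and 1159 bp in the IGF2BP1 and IGF2BP3 knockouts, and its nearest peak in the IGF2BP2 knockout was 5.54 kb from a gene end. IRF7, a transcription factor of interferon genes, had gene-end peaks of 626, 815 and 378 bp in the control, IGF2BP1 and IGF2BP3 knockouts, and its nearest peak in the IGF2BP2 knockout was 22.7 kb away. UNC93B1 and IRF7 both lie on chromosome 11. Of 754 genes of chromosome 11 with a control promoter peak, 34 (4.51%) lacked one in the IGF2BP2 knockout list, against 1.82% of 12590 such genes on the other chromosomes. The part of that chromosome-wide difference in these results was not tested.

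**Figure D5:**
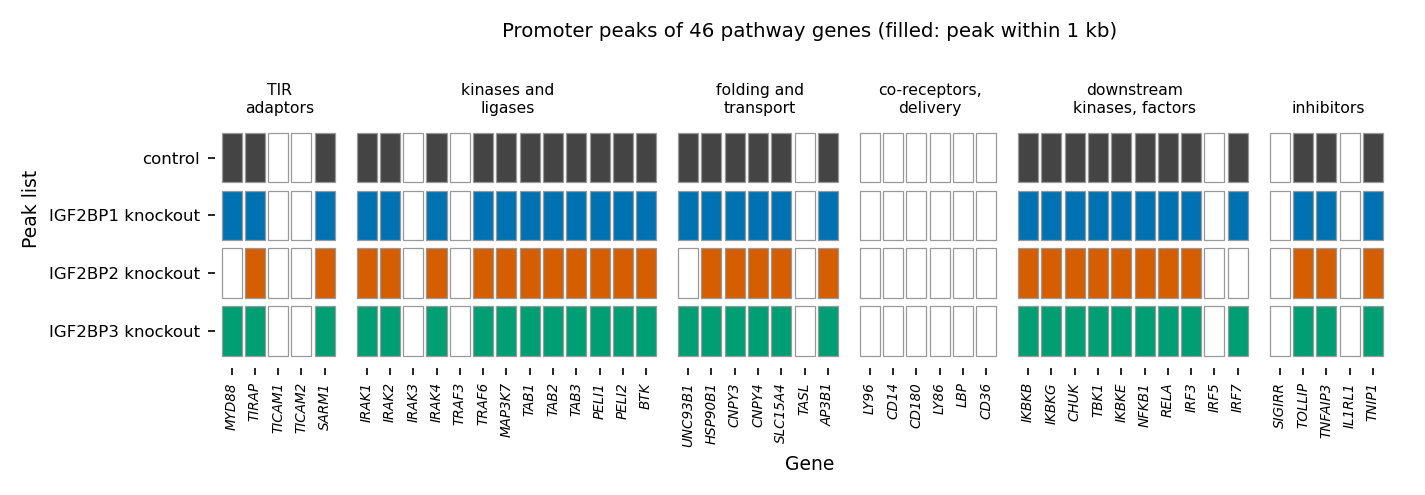
Promoter peaks of 46 genes of Toll-like receptor signalling (columns, grouped by role) in the 4 lists (rows). Filled boxes mark a peak within 1 kb of a start site, or of a gene end where no start site was at hand. The 6 co-receptor and delivery genes are empty in every list, and 3 genes are empty in the IGF2BP2 knockout alone.

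Marker genes of the labelled cell type and of others were examined in the same way, with either gene end where no start site was at hand. Promoter peaks were present at 5 of 8 embryonic kidney genes in the control, IGF2BP1 knockout and IGF2BP2 knockout lists and at 7 of 8 in the IGF2BP3 knockout list, with none at PAX8 in any list. The shares, 62.5% and 87.5%, stand beside 66.6% of all genes in the control and 67.5% in the IGF2BP3 knockout, and in the control the share was no higher than the background. The 3 neuronal genes known from HEK293 (NEFL, NEFM and INA) had peaks in all lists, as did 64.2% of all genes. The pan-leukocyte gene PTPRC, 4 B cell genes and 3 plasmacytoid dendritic cell genes had none in any list, as did 29.0% of all genes. Of 6 myeloid genes, SPI1 and CD68 had a peak in every list and CSF1R in the IGF2BP2 knockout alone. Of 4 epithelial genes, KRT18 and CDH1 had a peak in every list, KRT8 in the IGF2BP3 knockout alone and EPCAM in none. Of 3 endothelial genes, KDR had a peak in every list, and PECAM1 and CDH5 had none. Peak lists measure neither the edits nor the loss of the IGF2BP proteins, so the knockouts themselves could not be checked here.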

How the data were processed

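ATAC-seq peaks from 9 HEK293T libraries were used as the 4 lists deposited by the authors, 1 per group, with peaks given as coordinates alone. Per the submitters' processing notes, fastp 0.24.1, BWA 0.7.17, MACS2 3.0.0 and bedtools were used with GRCh38. The peak threshold, any offset for the transposase and how libraries were pooled are not given in the sources used here.

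Gene positions and promoter sequences came from RefSeq tables of GRCh38.p14. Start sites were derived from the promoter table, which matched 7 of 10 receptors. Peaks sharing at least 1 bp were merged into regions. The promoter limit was 1 kb and the window 10 kb. All 10 receptors, every region in their windows, neighbouring coding genes and listed pathway genes that differed between lists or had no peak were named by rule. The members and lists were chosen with earlier results of these data known. Overlap code was tested on simulated peaks. Alternatives covered both limits, list length, merging of peaks closer than 500 bp and the overlap rule. Computations used Python 3.11.15 and pandas 2.3.3.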

Additional observations from a re-analysis of the deposited data

Results flagged for a closer look

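At 3 regions found in all 4 lists, the peak was wider than in the control in some knockouts and narrower in others. These differences between knockouts were not tested, since each group is 1 list, and all 3 ratios share the control list. Upstream of TLR3, the ratio of widths to the control was 1.53 for the IGF2BP1 knockout but 0.763 for the IGF2BP3 knockout. Beyond the downstream end of TLR9, it was 1.34 for the IGF2BP1 knockout but 0.856 for the IGF2BP3 knockout. Upstream of TLR9, it was 1.31 for the IGF2BP1 knockout but 0.843 for the IGF2BP2 knockout. Over all regions with 1 peak in each list, the median ratio was 1.09, 0.998 and 0.979 for IGF2BP1, IGF2BP2 and IGF2BP3.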

How the results depend on the processing

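Of 76 alternative values, 55 stayed within 1.5 times the reported count and 21 did not. The number of receptors with a promoter peak was 1 in each list with a limit of 500 bp, where TLR3 no longer counted, and 4 in each list with either gene end, where TLR6 and TLR9 were added. With the 39194 widest peaks of each list it was 1 in the IGF2BP2 and IGF2BP3 knockout lists. Peaks in the gene bodies alone numbered 4 in the control and 6 in each knockout list, and within 25 kb they numbered 17 and 19. Regions in all 4 lists numbered 5 with the widest peaks and 15 within 25 kb. Regions absent from the control list but shared by the 3 knockouts numbered 0 with random peaks of each list, an alternative chosen after seeing the data. That draw shortened the knockout lists alone, so it could only lower this count. Pathway counts moved less, and most with random peaks, to 26 and 21 in the IGF2BP1 and IGF2BP2 knockout lists. No paired analysis was possible because each group is 1 peak list without values per library, and for the same reason no replicate could be left out.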

Other observations

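Among the pathway genes without a promoter peak in any list, TRAF3, an adaptor of the interferon branch of receptor signalling, had its nearest peak 41.7 kb from its start site in the control and 2.08, 1.98 and 2.15 kb from it in the knockouts, in the order IGF2BP1, IGF2BP2 and IGF2BP3. IRAK3, an inhibitory member of the IRAK family, had its nearest peak 2.35 kb from its start site in the IGF2BP2 knockout and 18.9 kb from it in the other 3 lists. TICAM2, the adaptor that links TLR4 to TICAM1, had its nearest peak 7.82 kb away in the IGF2BP1 knockout and 23.1 kb away in the other 3 lists. The distances are from the start site in the RefSeq promoter table, on which these calls rest, and no list had a peak within 1 kb of either end of these 3 gene records. The 3 genes were chosen after their values were seen, and the differences were not tested.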
